A study of Mus musculus with 2 samples.

Results

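The genes described here are 40 genes of the S, G2 and M phases of the cell cycle, taken as a list of names, with earlier results of these data known, out of 27998 genes in the deposited count table. All 40 were found in the table by symbol. Pclaf stands there under its older symbol 2810417H13Rik, which is kept below. Their level was read in 2 scRNAseq libraries of live mouse CD45+ cells sorted from subcutaneous B16 tumors, a melanoma that arose in C57BL/6 mice. Both libraries came from Vav-cre human LAIR1 transgenic mice, in which the Vav promoter limits the human receptor to hematopoietic cells, on the mLAIR1-/- C57BL/6J background, aged 6 to 8 weeks. The h219-LLG library was from mice given an antagonist antibody against human LAIR1 whose Fc part had been mutated to remove effector functions. The control library was from mice given the isotype control antibody. How many mice gave cells to each library is not stated.

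A dividing cell copies its DNA in S phase, checks it in G2 and separates the chromosomes in M. Genes of these phases are switched on in waves. E2F factors act on replication genes at the G1 to S boundary, while B-Myb, FOXM1 and the MuvB complex act on mitotic genes later, through a promoter element called the cell cycle genes homology region (CHR), often with CCAAT boxes bound by NF-Y nearby. In a tumor, effector T cells, Tregs and some macrophages divide on site, whereas naive T cells, resting B cells and plasmacytoid dendritic cells mostly do not. Both tumor and immune cells use the same genes.

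There was 1 library per group, so no test was possible and no p-value is given. Each unique molecular identifier (UMI) stands for a captured RNA molecule. A level is the summed UMIs of a gene per 1000000 UMIs of the cells in question, written CPM. Intervals are at 95% and cover counting error only, not the difference between mice. Those of CPM and of its ratios treat UMIs as independent, so they are too narrow where few cells hold most UMIs. After filters and doublet removal, 6909 cells with 40246302 UMIs remained with h219-LLG and 5332 cells with 35489410 UMIs with the control antibody, and their median depth was 4817 against 5602 UMIs. Ptprc, which encodes CD45, had a UMI in 93.1% and 93.2% of the kept cells. The sort still let through 43 and 48 melanoma-like cells, of which 4 and 5 had a Ptprc UMI. Mouse Lair1 had a UMI in 5.76% and 5.85% of the cells. A 3' tag need not lie in the deleted part of that gene, so this does not check the knockout, and the human transgene was not analysed here. The libraries shared 13 cell barcodes, 8 of them among the kept cells, where 0 with h219-LLG and 2 with the control antibody were in the cycling range described below.

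The members fall into 4 roles. The replication members are the MCM helicase subunits Mcm2 to Mcm7, the sliding clamp Pcna and its partner 2810417H13Rik, and the nucleotide enzymes Tyms, Rrm1, Rrm2 and Tk1. The cyclins and kinases are Cdk1, its cyclins Ccna2, Ccnb1 and Ccnb2, and the mitotic kinases Aurka, Aurkb, Bub1 and Plk1. The genes of chromosomes and kinetochores are Top2a, Mki67, Birc5, Cdca8, Cenpa, Cenpe, Cenpf, Smc2, Smc4 and Hmgb2. The genes of the spindle and of mitotic exit are Nusap1, Kif11, Kif23, Tpx2, Prc1, Ube2c, Cdca3, Stmn1, Tubb5 and Tuba1b. Of the 40, 26 were set apart as cycle-restricted, being known as silent outside the cycle, and 14 as broad, having other uses in resting cells (Mcm2 to Mcm7, Pcna, Rrm1, Smc2, Smc4, Hmgb2, Stmn1, Tubb5 and Tuba1b).

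Promoters were read to see how far these roles differ in sequence. The RefSeq table of the build GRCm38.p6, with 250 bases before and 50 after each transcription start, held a window for 34 of the 40 members (36 windows). It was searched on both strands for TTTGAA and TTCGAA (the CHR), for CCAAT, and for TTTCCCGC, TTTCGCGC, TTTGCCGC and TTTGGCGC (E2F sites). The CHR letters stood in 20 of the 36 windows (55.6%) and in 19.2% of all 32851 windows. By gene they were in 5 of 6 cyclins and kinases, 7 of 9 genes of chromosomes and kinetochores, 5 of 8 of the spindle and mitotic exit, but 2 of 11 replication genes. E2F letters showed the other pattern. They stood in 5 of 11 replication genes (2810417H13Rik, Mcm3, Mcm5, Mcm6 and Mcm7) and in 1 member of the other roles, Cdk1, and in 744 of the 32851 windows. CCAAT stood in 86.1% of the members' windows and 37.4% of all windows, and CHR with CCAAT in 55.6% and 7.53%. A match of letters is a description and does not show that a factor binds.

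The following 5 windows, read 5' to 3' on the gene's own strand in GRCm38.p6, stand for the members that the results turn on. Plk1 and Ccnb2 are cycle-restricted members of the mitotic kind, Cenpa is the member whose RNA behaved least like the others of its group, Mcm5 is a replication gene and Tuba1b a broad member. Capitals mark every match of the letters above.
Plk1 promoter, chr7:122159185-122159484, plus strand: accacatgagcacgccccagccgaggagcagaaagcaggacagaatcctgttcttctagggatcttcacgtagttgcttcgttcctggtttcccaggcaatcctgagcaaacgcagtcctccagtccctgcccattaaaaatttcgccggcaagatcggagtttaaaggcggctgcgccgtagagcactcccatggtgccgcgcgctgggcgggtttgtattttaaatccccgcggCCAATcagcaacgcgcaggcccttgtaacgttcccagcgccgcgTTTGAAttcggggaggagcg
Ccnb2 promoter, chr9:70421505-70421804, minus strand: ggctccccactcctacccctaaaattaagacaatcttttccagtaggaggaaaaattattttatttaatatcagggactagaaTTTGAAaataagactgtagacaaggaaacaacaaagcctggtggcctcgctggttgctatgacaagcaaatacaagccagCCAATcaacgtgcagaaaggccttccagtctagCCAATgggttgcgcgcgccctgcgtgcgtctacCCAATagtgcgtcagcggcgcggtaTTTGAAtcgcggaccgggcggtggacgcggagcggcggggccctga
Cenpa promoter, chr5:30666636-30666935, plus strand: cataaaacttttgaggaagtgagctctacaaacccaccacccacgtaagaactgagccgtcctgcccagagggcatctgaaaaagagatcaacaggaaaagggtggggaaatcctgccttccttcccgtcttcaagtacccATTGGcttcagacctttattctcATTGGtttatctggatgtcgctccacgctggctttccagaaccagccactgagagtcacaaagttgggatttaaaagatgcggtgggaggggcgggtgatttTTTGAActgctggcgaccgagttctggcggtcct
Mcm5 promoter, chr8:75109259-75109558, plus strand: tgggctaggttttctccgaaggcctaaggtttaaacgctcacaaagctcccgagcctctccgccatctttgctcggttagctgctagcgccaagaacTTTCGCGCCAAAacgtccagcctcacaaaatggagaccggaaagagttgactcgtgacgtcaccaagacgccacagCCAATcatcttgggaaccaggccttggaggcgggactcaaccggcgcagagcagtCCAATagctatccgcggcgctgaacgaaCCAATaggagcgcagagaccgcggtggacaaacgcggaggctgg
Tuba1b promoter, chr15:98934341-98934640, minus strand: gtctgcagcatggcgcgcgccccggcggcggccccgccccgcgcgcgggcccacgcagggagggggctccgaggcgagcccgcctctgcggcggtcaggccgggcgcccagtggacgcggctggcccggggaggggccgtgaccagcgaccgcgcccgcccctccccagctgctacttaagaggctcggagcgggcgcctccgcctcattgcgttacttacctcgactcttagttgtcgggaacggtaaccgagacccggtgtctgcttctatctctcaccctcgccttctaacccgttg
The Plk1, Ccnb2 and Cenpa windows held both TTTGAA and CCAAT, on either strand. The Mcm5 window held CCAAT and a run in which 2 E2F matches overlap, and no CHR letters. The Tuba1b window held none of the letters.

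The 40 members together reached 1905 CPM (interval 1891 to 1918) in the h219-LLG library, and in the control library 1686 CPM (interval 1672 to 1699), a ratio of 1.13. The 26 cycle-restricted members summed to 411 against 303 CPM, a ratio of 1.36 (1.32 to 1.39). The 14 broad members held most of the UMIs, at 1494 against 1382 CPM, a ratio of 1.08. Of the 40 members, 36 had a CPM ratio above 1, beside 57.5% of the 12232 genes with at least 50 UMIs. At least 1.5-fold higher with h219-LLG were 17 members, all of them cycle-restricted, beside 8.02% of all genes. None was lower by 1.5-fold, beside 5.53% of all genes. The median log2 ratio was 0.42 over the members, 0.72 over the cycle-restricted and 0.12 over the broad ones, and 0.06 over all genes.

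These sums weight each cell by its RNA. When every cell counted equally (UMIs per 10000 in each cell, then the mean), the order turned: 15.3 with h219-LLG against 16 with the control antibody, a ratio of 0.958, and 18 rather than 36 members were above 1. For the cycle-restricted members the mean per cell was 2.60 against 2.71. Each cell was also thinned to 1000 UMIs. The summed ratio was then 0.971, and 16 of the 27 members that still had 50 UMIs were above 1. The values that follow are sums of UMIs unless stated otherwise, and the cells that weigh most in them are described further on.

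**Figure D1:**
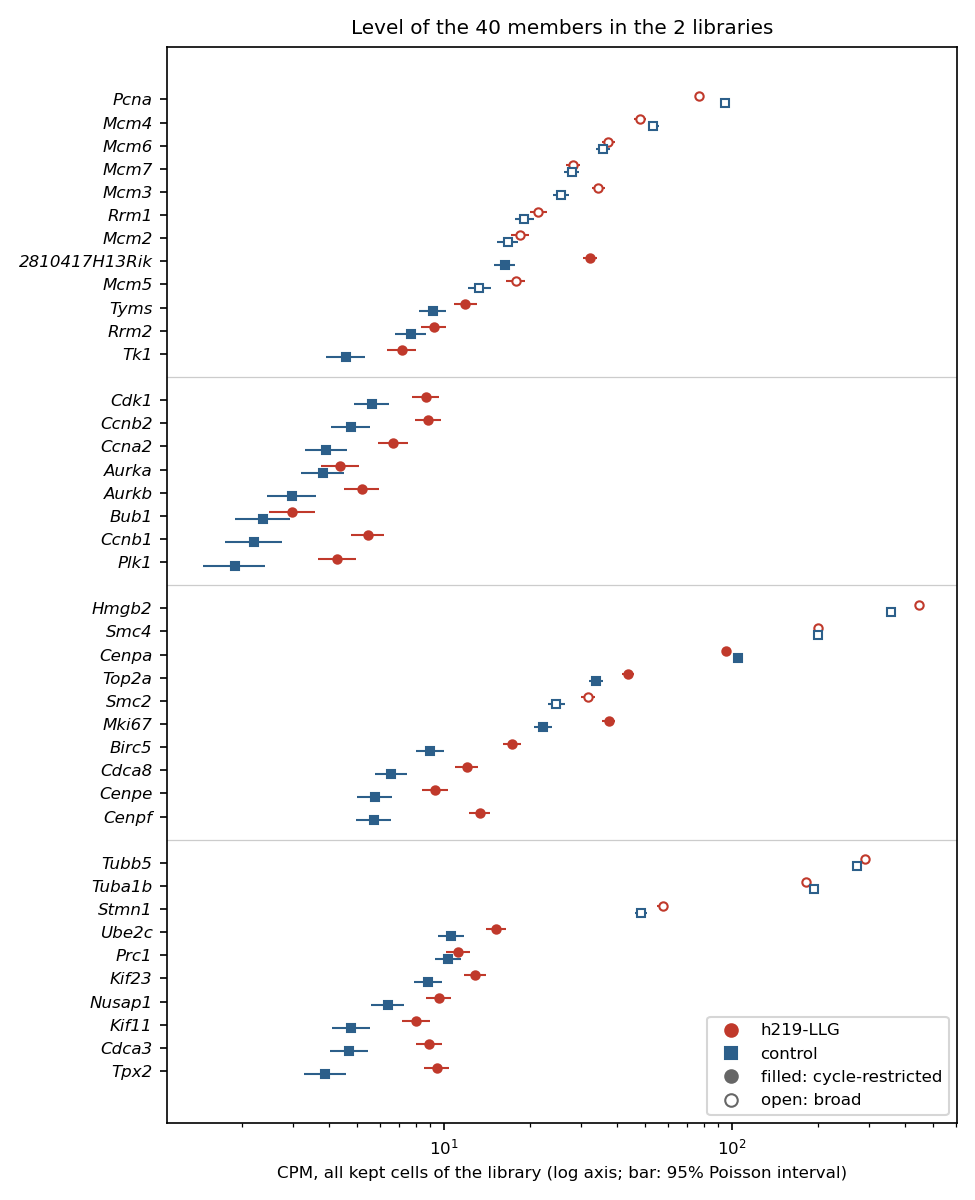
Level of each member in the 2 libraries, in CPM over all kept cells on a log axis, by role from top to bottom (replication, cyclins and kinases, chromosomes and kinetochores, spindle and mitotic exit). Bars are 95% Poisson intervals of the count. All 8 cyclins and kinases lie further right with h219-LLG (circles) than with the control antibody (squares), while Pcna, Mcm4, Cenpa and Tuba1b lie further left.

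Among the replication members, Pcna, the clamp that holds the polymerase on DNA, was at 77.1 CPM with h219-LLG and 94.8 CPM with the control antibody. Its ratio of 0.814 (0.775 to 0.855) was the lowest of the 40. Mcm4 was at 48.1 against 53.6 CPM. Mcm5, another helicase subunit, was at 17.8 against 13.3 CPM, a ratio of 1.34, close to the 1.35 of Mcm3. Mcm2, Mcm6 and Mcm7 had ratios from 1.01 to 1.11, with intervals that hold 1. The helicase subunits act as 1 ring in equal numbers, yet their RNA ratios ran from 0.898 to 1.35. The cycle-restricted members of the role were all above 1: 2810417H13Rik, which binds Pcna at the fork, was at 32.3 against 16.3 CPM (1.99), Tk1 at 7.16 against 4.59 CPM (1.56), Tyms at 11.9 against 9.16 CPM (1.30) and Rrm2 at 9.24 against 7.69 CPM (1.20). Over the 12 replication members the median log2 ratio was 0.21.

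The cyclins and kinases had the highest median log2 ratio of the 4 roles in summed UMIs, 0.78, and all 8 were above 1. With cells counted equally they had the lowest ratio of the 4 roles, 0.854 for the sum of the 8, and Cdk1 (0.586), Plk1 (0.623), Ccna2 (0.849), Aurka (0.928) and Ccnb2 (0.986) were below 1. In summed UMIs the 8 had 46.5 against 27.6 CPM. Ccnb1, the cyclin that takes cells into mitosis with Cdk1, was at 5.47 against 2.20 CPM, the highest ratio of summed UMIs among the members at 2.49 (1.91 to 3.26), but 1.08 when cells counted equally, where Cdca8 was highest at 1.55. Plk1, a kinase of mitotic entry and spindle assembly, was at 4.27 against 1.89 CPM (2.26). Ccnb2 was at 8.85 against 4.76 CPM (1.86), Aurkb, the kinase that corrects chromosome attachment, at 5.19 against 2.99 CPM (1.74), Ccna2 at 6.68 against 3.92 CPM (1.71) and Cdk1 at 8.67 against 5.64 CPM (1.54). The intervals of Bub1 (2.98 against 2.37 CPM, a ratio of 1.26) and Aurka (4.37 against 3.80 CPM, a ratio of 1.15) hold 1.

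For chromosomes and kinetochores, Mki67, whose protein coats mitotic chromosomes and is the usual mark of dividing cells, was at 37.4 against 22.2 CPM, a ratio of 1.69. Top2a, which untangles DNA, was at 43.8 against 33.9 CPM (1.29). Cenpf, a kinetochore protein, was at 13.3 against 5.72 CPM (2.33), and Birc5 and Cdca8, which belong to the chromosomal passenger complex with Aurkb, were at 17.3 against 8.96 CPM (1.93) and 12.1 against 6.59 CPM (1.83). Cenpa, the histone variant of the centromere, was the only cycle-restricted member below 1, at 95.4 against 105 CPM (0.905). Smc4, a condensin subunit, was at 199 CPM in both libraries. With cells counted equally the ratio of Birc5 was 1.07 and that of Cenpf 1.23, and among the other roles that of 2810417H13Rik was 1.25, of Cdca3 1.18, of Kif11 1.09 and of Prc1 0.702.

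In the spindle role, Tpx2, which brings Aurka to microtubules, was at 9.47 against 3.89 CPM, a ratio of 2.44. Cdca3, which helps to trigger mitotic exit, was at 8.90 against 4.71 CPM (1.89), the motor Kif11 at 8.05 against 4.79 CPM (1.68), and Nusap1 at 9.64 against 6.42 CPM. Kif23 and Ube2c, which act in cytokinesis and in the degradation of cyclins, had ratios of 1.46 and 1.43. Prc1 was at 11.3 against 10.3 CPM. The tubulins Tubb5 (292 against 272 CPM) and Tuba1b (182 against 193 CPM), which also build the microtubules of resting cells, had ratios of 1.07 and 0.942. For 7 members (2810417H13Rik, Ccna2, Nusap1, Ube2c, Mcm7, Tk1 and Prc1) another counted gene overlaps on the opposite strand, and whether reads were counted by strand is not stated.

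Not every member marked dividing cells in these tumors. A cell was placed in the cycling range if it had UMIs of at least 3 different cycle-restricted members, and for each member the range was set again by the other members alone. Of the UMIs of 2810417H13Rik, 97.1% with h219-LLG and 96.2% with the control antibody lay in cells in the range, of Ccnb2 96.1% and 92.3%, and of Ccna2 95.9% and 92.1%. Mki67 followed with 91.5% and 79.8%. At the other end stood Smc4, with 13.9% and 11.4%, and Cenpa, with 17.0% and 9.89%. Every member but Bub1 had a larger part of its UMIs in the range with h219-LLG than with the control antibody.

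UMIs outside the range were looked for in naive T-like and B-like cells. Naive T-like cells with a Cenpa UMI were 29.4% with h219-LLG and 37.2% with the control antibody, and B-like cells 35.2% and 43.3%. The share was 27.1% and 35.7% in CD8 experienced-like cells and 31.4% and 29.9% in pDC-like cells. The pDC-like cells were deeper, at a median of 9257 and 12106 UMIs, so these shares do not compare the classes. They are not read as expression by resting cells, and the part of free RNA was not tested. Other cycle-restricted members had lower shares: Top2a had a UMI in 5.31% and 6.54% of naive T-like cells, Kif23 in 7.73% and 6.61%, Mki67 in 0.806% and 0.974%, and Ccnb1 in 0.190% and 0.278%. Kif23 was found in 0.480% and 1.06% of B-like cells, so its UMIs in naive T-like cells differed from those in B-like cells. The broad members Tubb5 (80.0% and 84.2%), Smc4 (68.3% and 70.5%) and Tuba1b (51.2% and 62.5%) were found in more than 50% of naive T-like cells. Mcm4 separated the lymphocytes, with 29.8% and 41.0% of naive T-like but 9.08% and 8.54% of B-like cells, although naive T-like cells were also deeper, at a median of 5919 and 7200 UMIs against 3486 and 4230 for B-like cells.

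**Figure D2:**
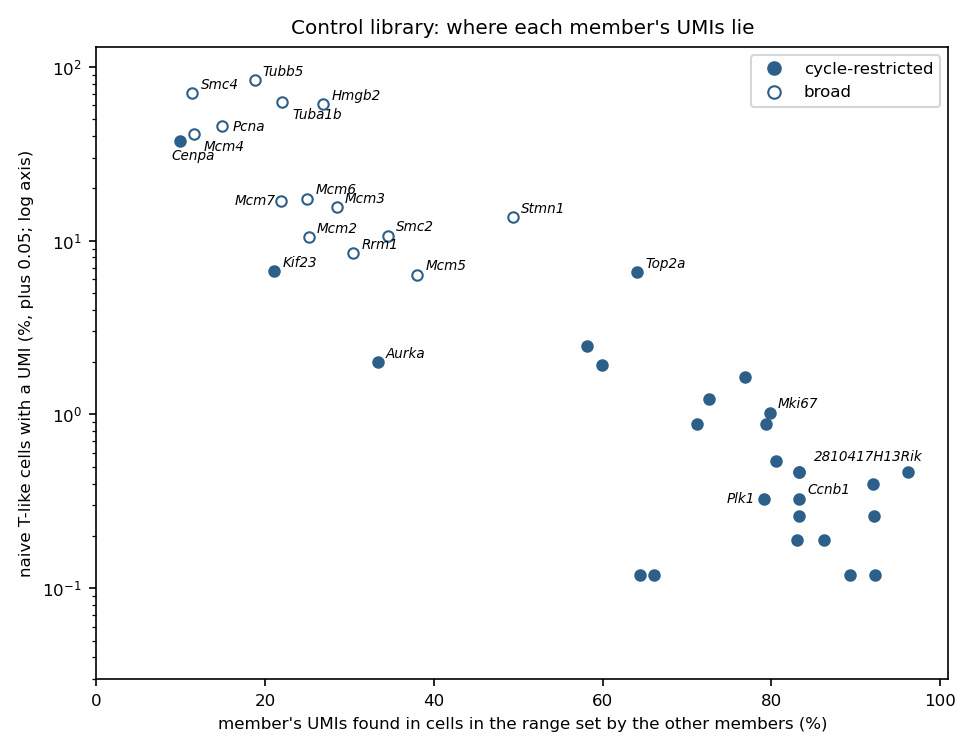
Each point is a member in the control library. The horizontal axis gives the percent of its UMIs that lay in cells placed in the cycling range by the other members, the vertical axis the percent of naive T-like cells with a UMI (0.05 added, log axis). Filled points are cycle-restricted and open points broad members, and Cenpa lies among the broad ones, with 9.89% of its UMIs in the range.

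The 4 members that were lower with h219-LLG over all cells were lower in naive T-like cells too. There Tuba1b was at 143 against 170 CPM (0.841). Pcna was at 62.4 against 88.4 CPM (0.706), Mcm4 at 64.6 against 82.2 CPM (0.786) and Cenpa at 70.3 against 81.5 CPM (0.863). Tubb5 (1.03) and Smc4 (1.07), also found in many of these cells, had ratios above 1. Stmn1, which was higher over all cells, was at 18.0 against 26.2 CPM in naive T-like cells (0.690). In B-like cells Stmn1 was at 22.4 against 36.1 CPM (0.621) and Pcna at 65.8 against 81.5 CPM (0.808). Stmn1, which destabilizes microtubules, had a UMI in 14.2% of all control cells and 7.87% of h219-LLG cells, although its CPM was higher with h219-LLG over all cells (57.6 against 48.6). In the control library its share was of one order in classes of different kinds, 13.6% of naive T-like, 11.7% of B-like, 15.5% of macrophage-like and 15.8% of CD8 experienced-like cells. These classes differ in depth, on which such a share depends, so it is not read as expression. The part of free RNA in the difference was not tested.

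Over all cells the cycling range held 262 of 6909 cells with h219-LLG (3.79%, 3.35 to 4.27) and 223 of 5332 with the control antibody (4.18%, 3.66 to 4.76). The ratio of the shares was 0.907 with an interval of 0.761 to 1.08, so no difference could be seen at this depth with this cut. With a cut at 2 members the ratio was 0.792 (0.721 to 0.869), and with no cell filter 0.843 (0.711 to 0.999). The cut lies where cells are dense: 88 and 102 cells had exactly 3 such members, and 519 and 538 had 2. With Cenpa left out, the range held 197 (2.85%) and 146 (2.74%) cells. Cells in the range were deeper than others, at a median of 10450 and 8804 UMIs against 4757 and 5532. After each cell was thinned to 1000 UMIs, 77 of 6820 (1.13%) and 40 of 5218 cells (0.767%) were in the range, a ratio of 1.47 (1.01 to 2.15), with 89 and 114 shallower cells left out. The order of the 2 libraries thus depended on depth and cut, and none is read from it. Among cells that passed the filter, 82 and 38 in the range had been removed as doublets.

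The classes named by lineage markers and given here stood in the same order in both libraries. Melanoma-like cells led, with 60.5% of 43 and 47.9% of 48 cells in the range, then Treg-like cells with 15.2% and 17.7%, conventional dendritic (cDC)-like cells with 14.8% and 11.1%, macrophage-like cells with 9.82% and 10.3%, CD8 experienced-like cells with 8.21% and 9.36%, CD4 experienced-like cells with 5.71% and 9.23%, and NK-like cells with 4.81% and 4.12%. Naive T-like cells (1.14% and 1.74%) and B-like cells (0.830% and 1.12%) had the lowest shares above 0. Of plasmacytoid dendritic (pDC)-like cells, 0 of 35 and 0 of 97 were in the range, which allows shares of up to 8.57% and 3.09%. Cells with markers of several lineages (mixed) had 16.3% and 15.4% in the range, and those in the range were deep, at a median of 27970 and 19806 UMIs against 5023 and 5722 for the other mixed cells. In each of these classes the intervals of the libraries overlapped.

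**Figure D3:**
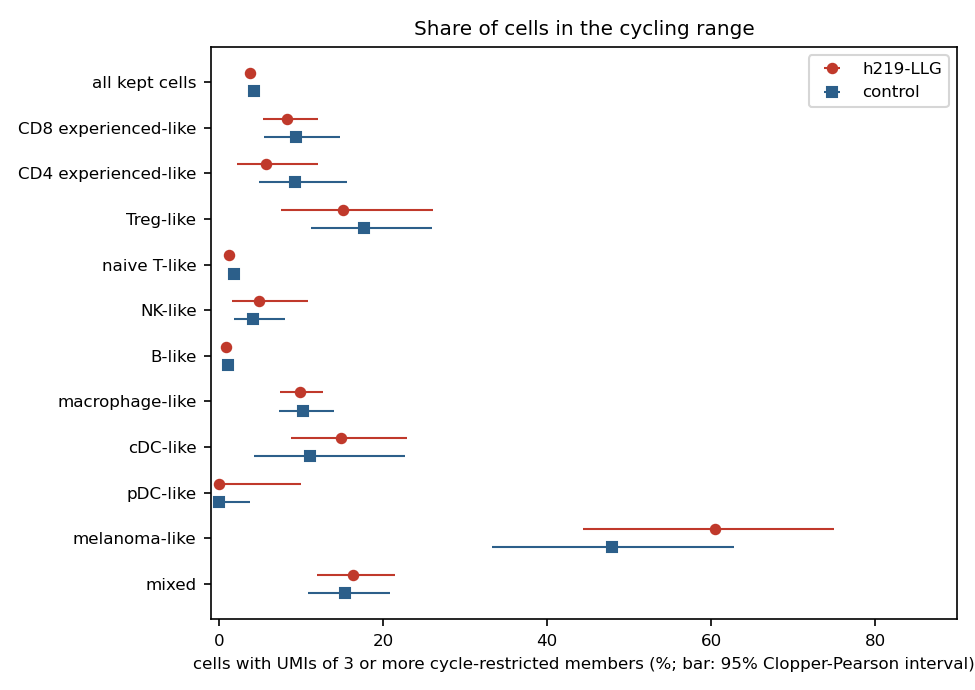
Percent of cells in the cycling range (UMIs of 3 or more cycle-restricted members) in each class, with 95% Clopper-Pearson intervals. Melanoma-like cells stand highest in both libraries at 60.5% and 47.9%, and the intervals of the 2 libraries overlap in every class drawn.

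In CD8 experienced-like cells (280 and 171 cells) the 40 members summed to 3351 against 1989 CPM, a ratio of 1.69 (1.61 to 1.76), and the cycle-restricted members to 933 against 259 CPM, a ratio of 3.61 (3.23 to 4.04). Of the 32 members measured there, 29 were above 1, beside 51.1% of all genes in that class, and 21 were at least 1.5-fold higher, beside 7.55%. The median log2 ratio was 1.13 over the members and 0.01 over all genes. Mki67 was at 112 against 17.3 CPM (6.44), Top2a at 106 against 34.7 CPM (3.06), Birc5 at 49.3 against 3.47 CPM (14.2), Cenpf at 38.2 against 2.77 CPM (13.8) and Mcm5 had a ratio of 1.75. Pcna (0.927), Smc4 (0.951) and Mcm6 (0.974) were the lowest. Ccnb2 had 57 UMIs with h219-LLG and 1 with the control antibody, a ratio of 38.2 with an interval from 6.59 to 1536.

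Few cells held most of these UMIs. In the h219-LLG library the 5 CD8 experienced-like cells with the most cycle-restricted UMIs had 542, 309, 267, 164 and 158 of them, and 71.8% of the class's total. In the control library the 5 highest had 80, 33, 18, 10 and 7. The h219-LLG cells with 542 and 267 had 72541 and 65138 UMIs in all, and the others of these had 12085 to 17458, against a class median of 6412. The control cells had 7205 to 26474 UMIs in all, against a class median of 7362. The part of doublets was not tested. Counted as cells with UMIs of at least 10 different cycle-restricted members, a limit set after the values were seen, there were 9 of 280 against 1 of 171. Without those cells the cycle-restricted level was 134 CPM with h219-LLG and 205 CPM with the control antibody, so the order turned. The mean per cell, 4.35 against 2.29 per 10000 UMIs, kept it, but it includes those same cells. The median per cell was lower with h219-LLG, at 1.02 against 1.39 per 10000 UMIs. Over all 40 members the median was 13.98 against 15.95. Thinned to 1000 UMIs, 9 of 280 against 0 of 171 stayed in the range, and 0 allows up to 1.75%. Whether such cells differ in number between mice cannot be told from 1 library a group.

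In Treg-like cells (66 and 113 cells) the members summed to 5747 against 3378 CPM (1.70), and the cycle-restricted ones to 2125 against 816 CPM (2.61, with an interval of 2.37 to 2.87). Above 1 were 21 of 22 measured members, beside 50.3% of all genes, and 14 were at least 1.5-fold higher, beside 11.3%. Cenpf was at 161 against 33.0 CPM (4.87), Mki67 at 315 against 84.1 CPM (3.74), Ube2c had a ratio of 3.64, and Tyms, the thymidylate enzyme, was the member below 1 at 0.697. Here too 6 and 4 cells with 10 or more members held 92.7% and 59.1% of the cycle-restricted UMIs, and without them the level was 223 against 357 CPM. The 5 highest cells held 87.1% with h219-LLG and 63.2% with the control antibody. They had 11280 to 58522 and 7403 to 24753 UMIs in all, against class medians of 5142 and 6578. The median log2 ratio was 0.82 over the measured members and 0.01 over all genes.

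In CD4 experienced-like cells (105 and 130 cells) the sums were 3953 against 2625 CPM, a ratio of 1.51. All 16 measured members were above 1, beside 56.7% of all genes, and 8 were at least 1.5-fold higher, beside 10.6%, with 2810417H13Rik (3.32, 62 against 26 UMIs) and Mcm3 (2.46) highest and Smc4 (1.05) lowest. The mean per cell was 23.8 against 23.9 per 10000 UMIs. Macrophage-like cells (550 and 341 cells) had 1572 against 1347 CPM (1.17), and 380 against 266 CPM for the cycle-restricted members (1.43). Above 1 were 27 of 33, beside 59.9%, and 13 were at least 1.5-fold higher, beside 10.1%. Cenpf had a ratio of 7.56 (115 against 10 UMIs), Ccna2 of 6.35 (58 against 6 UMIs) and Tpx2 of 5.59 (85 against 10 UMIs), while Prc1 (0.657), Cenpa (0.827) and Pcna (0.834) were lowest. The mean per macrophage-like cell, however, was lower with h219-LLG, at 14.1 against 16.5 per 10000 UMIs. In the 54 and 35 macrophage-like cells in the range the median was 8 and 14 cycle-restricted UMIs. The cycle-restricted ratio was also above 1 in cDC-like cells (2.16, interval 1.87 to 2.495) and in T-like cells left unsplit (2.17, interval 1.97 to 2.39). With h219-LLG the 5 highest cells held 80.2% and 60.6% of these UMIs in the 2 classes.

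In NK-like, B-like and naive T-like cells the summed ratios of all members were close to 1. The cycle-restricted members had 0.865 (0.758 to 0.986) in NK-like, 0.95 (0.888 to 1.015) in B-like and 1.04 (0.9675 to 1.115) in naive T-like cells. Within the last, CD8 naive-like cells had 1.11 (1.02 to 1.21) and CD4 naive-like cells 0.853 (0.747 to 0.974). With cells counted equally, the NK-like ratio of these members was 1.01. In NK-like cells (104 and 194 cells) the sums were 2710 against 2806 CPM, a ratio of 0.966 with an interval that holds 1, and 9 of 17 measured members were above 1, beside 51.9% of all genes. The highest was 2810417H13Rik (2.20) and the lowest were Tuba1b (163 against 244 CPM) and Top2a (0.738). In the control library 2 NK-like cells held 324 and 227 cycle-restricted UMIs of 26 members each. In B-like cells (2290 and 1697 cells) the sums were 1225 against 1265 CPM (0.969, interval 0.942 to 0.996). Above 1 were 10 of 20 members, beside 55.8%. Naive T-like cells (2110 and 1438 cells) had 1418 against 1416 CPM, and 13 of 24 members above 1, beside 57.9%. The difference of ratios between these classes and the CD8 experienced-like cells was not tested.

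**Figure D4:**
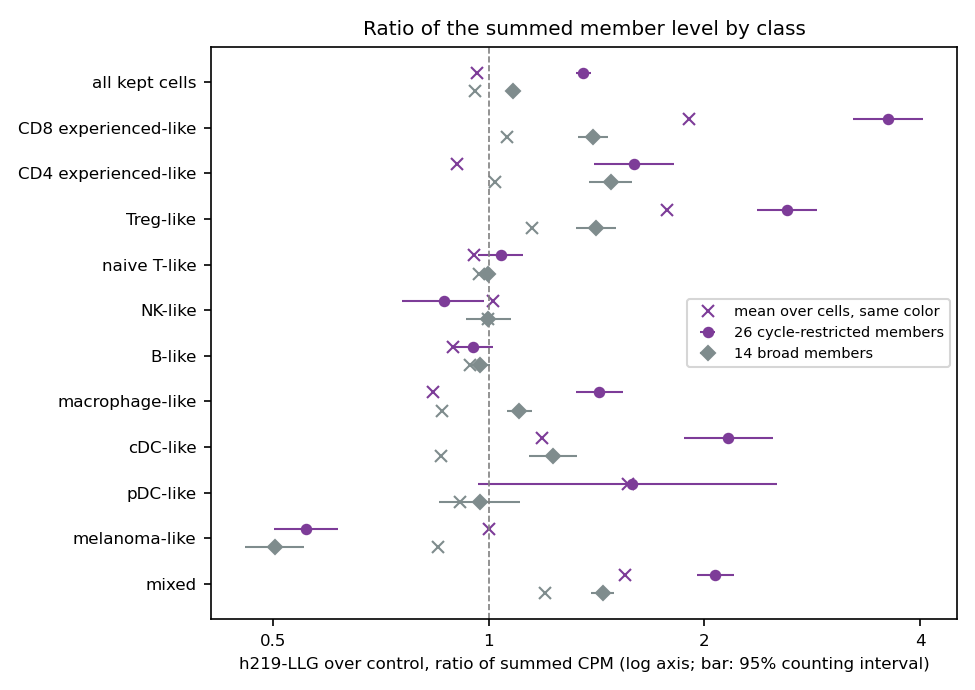
Ratio of the summed CPM, h219-LLG over control, in each class for the 26 cycle-restricted and the 14 broad members on a log axis, with 95% counting intervals. Crosses give the ratio of the mean per cell, which counts each cell equally, in the color of the list. CD8 experienced-like cells stand furthest right at 3.61, melanoma-like cells furthest left at 0.557 for the cycle-restricted members, and the cross of CD8 experienced-like cells lies at 1.91 for the same members.

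Melanoma-like cells had 4030 against 7655 CPM, a ratio of 0.526. The direction did not hold after thinning to 1000 UMIs, where the ratio was 1.41. That value rests on 25 and 19 cells, since 18 and 29 shallower ones were left out, so it is not depth alone that changed. With all cells of the class counted equally the ratio was 0.910. Of the cycle-restricted UMIs of the control cells, 92.7% were in 5 cells, and 2 cells with 150343 and 286202 UMIs in all had 771 and 737 of them. A single control cell held 82.5% of the 2810417H13Rik UMIs and 84.7% of the Rrm2 UMIs of the class. The mean per cell was 35.4 cycle-restricted UMIs per 10000 with h219-LLG and 35.5 with the control antibody. The class as a whole was shallow, at a median of 1198 and 863 UMIs. They held 2.88% and 15.6% of all cycle-restricted UMIs. Without melanoma-like and mixed cells the sum over all members had a ratio of 1.13 and 36 members were above 1. Single members moved by more than 1.5-fold: Bub1 then had a ratio of 2.18 and Tpx2 of 3.70 (1.26 and 2.44 with those cells).

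Over all kept cells, cells with 10 or more cycle-restricted members were 71 with h219-LLG and 47 with the control antibody, with 63.8% and 43.9% of the cycle-restricted UMIs. They were deep cells, at a median of 21257 and 12003 UMIs. The level of all the other cells was 157 against 176 CPM. The ratio of the shares of such cells was 1.17, with an interval of 0.808 to 1.68. With each class given the same weight in both libraries, which removes differences in their make-up, the summed ratio was 1.18 over all members and 1.48 over the cycle-restricted ones. Mixed cells held 23.2% and 14.1% of the cycle-restricted UMIs, with 19 and 14 cells of 10 or more members. The part of depth and of doublets in these values was not tested.

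**Figure D5:**
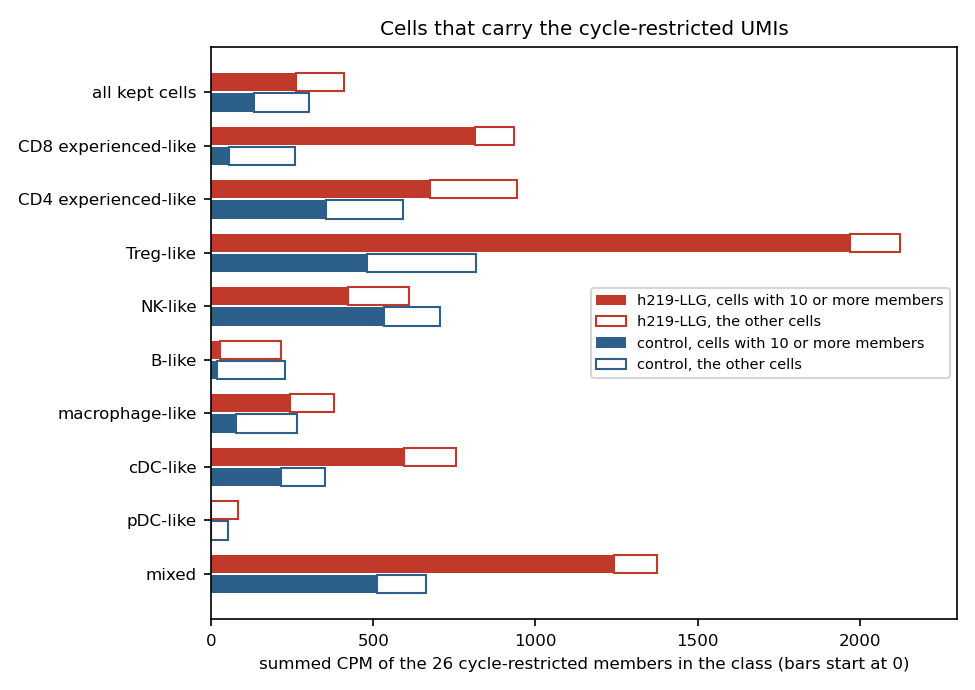
Summed CPM of the 26 cycle-restricted members by class, split into cells with UMIs of 10 or more of them (filled) and the other cells (open). The bars start at 0, and naive T-like and melanoma-like cells are not drawn. In CD8 experienced-like cells the filled part is most of the h219-LLG bar of 933 CPM, and the open part is longer with the control antibody.

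The part of replication members was read as a description of phase. Over all cells, replication members made up 18.3% and 18.5% of the cycle-restricted UMIs of cells in the range. In CD8 experienced-like cells it was 17.3% with h219-LLG and 38.1% with the control antibody (189 UMIs, 80 of them in 1 cell), and in macrophage-like cells 10.9% and 18.7%. NK-like cells (36.3% and 16.7%) and B-like cells (36.8% and 20.8%) had the reverse order of the libraries. No difference between libraries or classes was tested. These classes had 5 to 54 cells in the range per library, so a single cell weighs heavily in these shares.

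The CD8 experienced-like cells in the range were also compared with the others of their class in genes that are not members. There Gzmb, a cytotoxic granule protease, was at 273 against 74.4 CPM in the other cells with h219-LLG (3.67, interval 2.82 to 4.77), and at 83.2 against 59.3 CPM with the control antibody (1.40, interval 0.799 to 2.35). Tnfrsf9, a costimulatory receptor of activated T cells, was at 112 against 18.3 CPM and at 145 against 2.47 CPM, but its ratio was 1.56 and 0.891 in Treg-like cells. Other genes of the list were named after their values were seen, and some ratios rest on few UMIs. Gzma, another granule protease, had a ratio of 1.34 with h219-LLG (interval 1.04 to 1.71) and 9.155 with the control antibody (6.79 to 12.4). Prf1, which encodes perforin, had a ratio of 2.35 with h219-LLG (interval 1.29 to 4.15). With the control antibody it was 0.560 on 2 UMIs in the range (0.0632 to 2.32). Il2ra, a subunit of the interleukin 2 receptor, had 0.620 on 2 UMIs in the range (0.0684 to 2.70) and 6.79 (3.51 to 13.4). The intervals of 0.560 and 0.620 hold 1, so no opposite order of the libraries is read. Tigit, an inhibitory receptor, had 4.34 (0.31 to 59.9) and 5.32 (0.71 to 39.7). Il7r, the interleukin 7 receptor of resting T cells, was lower in the range, at 194 against 479 CPM with h219-LLG and 320 against 596 CPM with the control antibody. Gzmb was among the genes that split experienced from naive cells, so it was also used to choose the cells of this class, while Tnfrsf9 and Il7r were not. These values rest on 23 and 16 cells in the range. Treg-like cells did not show this for Gzmb in both libraries: it was at 365 CPM in the range against 79.1 CPM with h219-LLG (10 cells in the range) and at 52.3 against 147 CPM with the control antibody (20 cells). Il7r was lower in the range in both, at 76.4 against 356 CPM and 348 against 578 CPM.

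Other genes of the cycle were read beside the members, against 57.5% of all genes above 1 and 8.02% at least 1.5-fold higher. Of 22 genes of G1 and entry into S, 15 were above 1, 5 of them at least 1.5-fold, and Ccne2, the cyclin that starts S phase with Cdk2, was lower at 3.40 against 5.75 CPM (0.592). Highest was Uhrf1, which carries DNA methylation through replication, at 10.5 against 6.06 CPM (1.73), then Dut, the dUTPase, at 55.2 against 34.9 CPM. Of 19 measured checkpoint and mitosis genes, 17 were above 1 and 8 at least 1.5-fold. Espl1, the protease that cuts cohesin, was at 2.88 against 0.958 CPM (3.01) and Hmmr at 6.39 against 2.68 CPM (2.39), while Chek1, a kinase of the replication checkpoint, was at 3.31 against 5.13 CPM (0.644). Of 8 chromatin genes of S phase, 6 were above 1, none by 1.5-fold. Of 12 inhibitors and quiescence genes, 5 were above 1. The counts above 1 of the G1, chromatin and inhibitor lists are not far from that share. Among them the antiproliferative genes Tob1 (0.696) and Btg1 (2072 against 2919 CPM, 0.710) and the CDK inhibitor Cdkn1a (0.720) were lower, and Klf2, a factor of resting T cells, was higher at 1061 against 849 CPM (1.25). The checkpoint and S phase genes share their cells with the members and are not independent of them.

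The genes that were most like the members were taken by fold between cells in the range and the other cells of their class, averaged over 11 classes in both libraries (22 pairs), among genes with at least 50 UMIs in the range. Fam64a, Hist1h3b, Ska1, Hist1h2af, Kif2c and Nuf2 stood among the first 10 and were higher in 12 to 18 of the 22 pairs, with UMIs in 26 to 45 cells. Unc5c, Gsta2, Rpl7a-ps3 and Hist1h2al completed the 10 but had UMIs in 2 to 12 cells, and for Gsta2, Rpl7a-ps3 and Hist1h2al 1 cell held 74.3% to 83.8% of them. The fold was 730 for Fam64a (10.5 against 0.0143 CPM) and 114 for Nuf2. The range was set by the members, so this likeness is a description.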

How the data were processed

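Both libraries are droplet-based 3' scRNAseq, for which the authors deposited unnormalized UMI counts of each gene in each barcode. The submitters' processing notes name Cell Ranger 5.0.0 and mm10, and the tables hold 8807 barcodes with h219-LLG and 6133 with the control antibody. A barcode needed 200 genes, 500 UMIs and less than 10% of UMIs from mitochondrial genes. Likely doublets, scored by their simulated neighbors, were then removed at a rate of 0.8% per 1000 barcodes (524 and 275). A cell took the class with the most marker UMIs if these were at least 2 and 80% of all its marker UMIs, was called mixed if they were not, and stayed unclassed with fewer than 2 marker UMIs in all. T-like cells were split by Cd4, Cd8a, Cd8b1, Foxp3 and genes of naive and experienced cells, and 753 and 667 stayed unsplit. Cybb, Ccr9 and Spib were left out of the panels after their UMIs were seen across lineages. Macrophage and conventional dendritic marker UMIs were pooled and given to the larger of these panels, unlike in the gate as first written. T marker UMIs were not counted in cells that passed as NK by NK markers and few Cd3 UMIs.

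UMIs were summed per library and class. CPM has exact Poisson, shares Clopper-Pearson and ratios binomial intervals. Genes with at least 50 UMIs over both libraries were measured, so a gene could pass through 1 library alone. A count of 0 was taken to allow 3. The members and lists were chosen with earlier results of these data known. Mki67, Top2a, Pcna and Mcm5 and the highest and lowest members by ratio were named, with others for their role or spread chosen after their values were seen. Coordinates are from RefSeq GRCm38.p6. The ratios, their intervals and the call at 1.5-fold were tried on simulated Poisson counts, drawn independently for each gene. This checks the code only, and does not cover UMIs gathered in few cells. Python 3.11.15, numpy 2.4.6, scipy 1.17.1, scikit-learn 1.9.0, matplotlib 3.10.9, R 4.3.3 and edgeR 4.0.16 (TMM scaling only) were used.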

Additional observations from a re-analysis of the deposited data

Results flagged for a closer look

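The summed level of the members was higher with h219-LLG in CD8 experienced-like cells, with a ratio of 1.69, and lower in melanoma-like cells, with a ratio of 0.526. These were looked at again because the 2 kinds of cells from the same pair of libraries had ratios on opposite sides of 1 in summed UMIs. This did not hold for the 25 and 19 melanoma-like cells deep enough to be thinned to 1000 UMIs, which had a ratio of 1.41. Over all melanoma-like cells the mean per cell of cycle-restricted members had a ratio of 1.00. The difference was not tested, since each ratio rests on 1 library per group, and in both classes 5 or fewer cells held most of the cycle-restricted UMIs of the higher library.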

How the results depend on the processing

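No paired analysis was possible because there was 1 library per group and no test, and leaving out a library left no comparison. With the mean over cells, the summed ratio of 1.13 became 0.958, the class-weighted 1.18 became 0.998, CD8 experienced-like 1.16, CD4 experienced-like 0.996, Treg-like 1.28, B-like 0.934, macrophage-like 0.856, melanoma-like 0.910, and 18 members were above 1. Of single members, Stmn1 became 0.752, Tubb5 0.988, Cdk1 0.586, Ccna2 0.849, Ccnb2 0.986, Cenpe 0.886, Nusap1 0.858, Ube2c 0.878, Tyms 0.859, Rrm1 0.928, Rrm2 0.876, Mcm5 0.991, Plk1 0.623 and Tpx2 0.835. Thinned to 1000 UMIs, the sum became 0.971, class-weighted 0.988, CD8 experienced-like 1.16, CD4 experienced-like 0.927, Treg-like 1.21, NK-like 1.03, B-like 0.924, macrophage-like 0.868 and melanoma-like 1.41, with 16 members above 1 and a share ratio of 1.47. Stmn1 became 0.707, Tubb5 0.997, Ccna2 0.701, Ccnb2 0.855, Nusap1 0.574, Ube2c 0.765, Mcm5 0.777, Plk1 0.670 and Kif11 0.566. Cells of fewer UMIs were left out by thinning, among them 18 and 29 melanoma-like cells.

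At 2000 UMIs the sum was 0.991 and the share ratio 1.21, cuts at 5 and 10 members gave 1.14 and 1.17, while a cut at 2 members gave 0.792 and no cell filter 0.843. With at least 1000 UMIs and under 5% mitochondrial UMIs, the values were 1.18, class-weighted 1.23, CD8 experienced-like 1.81, CD4 experienced-like 1.38, B-like 1.02 and Tuba1b 1.00. Without doublet removal the sum was 1.11 and class-weighted 1.14. TMM scaling gave 1.11 for all cells, CD4 experienced-like 1.38, Treg-like 1.60 and macrophage-like 1.11. Cycle-restricted members alone gave 1.36, class-weighted 1.48, CD8 experienced-like 3.61, Treg-like 2.61, NK-like 0.865 and macrophage-like 1.43, and leaving out Cenpa 1.15 and 1.20. Gating by most panel UMIs gave CD4 experienced-like 1.71, Treg-like 1.84, B-like 1.07, macrophage-like 1.41 and melanoma-like 0.587, the stricter gate NK-like 1.21, B-like 0.919 and macrophage-like 1.08, the gate as first written B-like 0.929, and no cell filter melanoma-like 0.589. Leaving out Cenpa, thinning to 2000 UMIs, the cut at 10 and the gate as first written were chosen after seeing the data. The cause was not tested. Of the 40 members, 14 were above 1 in each of the 8 settings that gave every member, with thinning to 1000 UMIs among them. With the mean over cells, 22 were below 1. Thinning left 27 members with enough UMIs.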
